A study of Homo sapiens with 14 samples.

Results

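The 10 genes described here, PRRX1, SNAI2, TWIST1, FOSL1, FOSL2, RUNX1, RUNX2, SOX9, VIM and CD44, are regulators and markers of the mesenchymal state of neuroblastoma cells. They were taken by gene name from count tables of 19923 protein-coding genes. The 14 RNA libraries, 2 replicates in each of 7 groups, were all made from polyadenylated RNA of SK-N-BE2, an established MYCN-amplified line of this childhood tumour. In batch 1 the cells were labelled WT for genotype and received water (H2O), 10 µM CoCl2 or 50 µM CoCl2. In batch 2 the cells were labelled as untreated and were either WT or 1 of 3 numbered TET2 knockouts, TET2KO 1, TET2KO 2 and TET2KO 3. The labels name no other allele, and neither the editing method nor whether a number stands for a single clone is given. They also do not say whether replicates were separate cultures, so each p-value measures only the spread between these libraries, which may be technical.

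Neuroblastoma cells are known in an adrenergic state, with a noradrenergic gene programme, and in a mesenchymal state that resembles migratory neural crest cells. PRRX1, SNAI2, SOX9, RUNX1, RUNX2 and the AP-1 subunits FOSL1 and FOSL2 are transcription factors of the mesenchymal state, while VIM and CD44 encode an intermediate filament protein and a hyaluronan receptor that mark it. TWIST1 belongs to the factors of the epithelial-to-mesenchymal transition (EMT) but is also known to be expressed in MYCN-amplified neuroblastoma. CoCl2 is widely used to stabilise hypoxia-inducible factors (HIF), and TET2 oxidises 5-methylcytosine in DNA.

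A library held 31214128 to 39540111 counts in batch 1. In batch 2 it held 52095024 to 59263320, most of them standing for 1 read of a pair. Levels are given in CPM, counts relative to the scaled library total, with the SD over 2 libraries. TET2 mRNA itself was 67.8 ± 4.30 CPM (SD, n = 2) in WT, 78.5 ± 2.71 in TET2KO 1, 89.2 ± 2.67 in TET2KO 2 and 71.8 ± 5.08 in TET2KO 3. By edgeR's quasi-likelihood test its log2 fold change against WT was 0.21 in TET2KO 1 (adjusted p = 6.64e-04) and 0.40 in TET2KO 2 (adjusted p = 3.85e-12). In TET2KO 3 it was 0.080 (adjusted p = 0.301). The level was thus higher in 2 labelled groups and lower in none. Gene counts cannot show an edit that leaves the mRNA in place, so the groups are called labelled knockouts here.

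The members ranged from an mRNA among the most abundant of the line, VIM, to genes near the detection limit. Levels were compared between genes per kilobase of exon. VIM stood at 220 ± 0.654 CPM per kilobase in H2O and 162 ± 0.418 in WT, the 82nd and 167th highest of the 19923 genes. TWIST1 followed with 46.9 ± 0.618 in H2O and 30.0 ± 1.09 in WT, and FOSL2 with 15.9 ± 0.0560 and 17.4 ± 0.472. CD44, SOX9, SNAI2 and FOSL1 lay lower, between 0.356 and 5.81 CPM per kilobase in H2O and between 3.11 and 11.3 in WT.

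RUNX1, PRRX1 and RUNX2, 3 of the core factors of the mesenchymal state, were close to 0 in both controls, at 0.00899 or less per kilobase in H2O and 0.0173 or less in WT. In WT the neighbours CD44 (3.34 ± 0.172), FOSL1 (3.21 ± 0.0651) and SNAI2 (3.11 ± 0.288) did not differ beyond their spread, and neither did RUNX1 (0.0173 ± 0.00466) and PRRX1 (0.0153 ± 0.00330). In H2O, RUNX1 (0.00899 ± 0.00585), PRRX1 (0.00155 ± 0.00219) and RUNX2 (0.00154 ± 0.00218) did not differ beyond their spread. The adrenergic identity list, 15 genes such as DBH and TH, was high throughout, with 13 or 14 members at 1 CPM or more in each group and a summed level of 4875 to 7733 CPM. Abundant adrenergic mRNAs were thus present together with VIM and TWIST1, while RUNX1, PRRX1 and RUNX2 were almost absent from the counts.

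**Figure D1:**
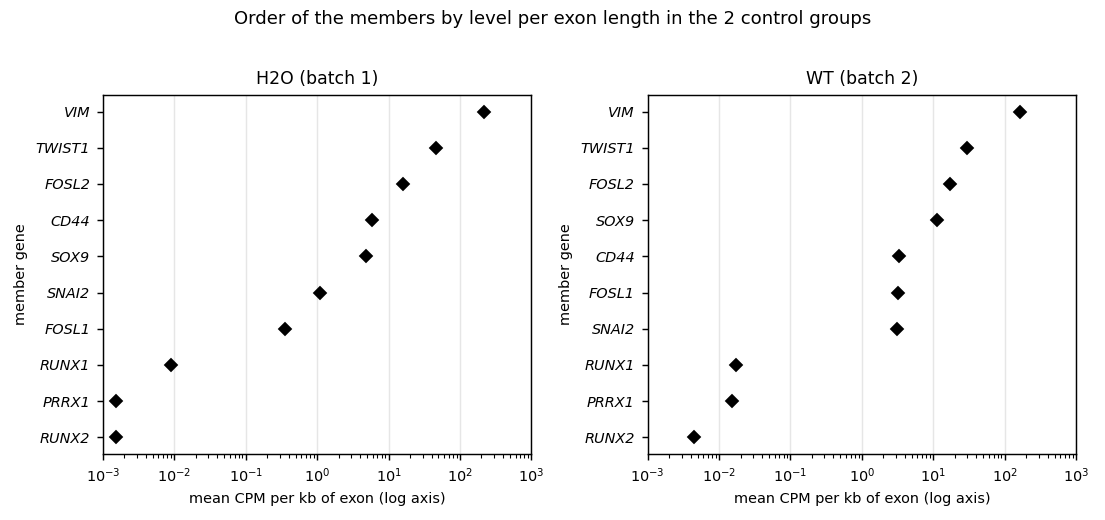
Mean level of each member per kilobase of exon (horizontal log axis, CPM per kb) in H2O (left) and WT (right), ordered by level. VIM leads in both controls (220 and 162) and RUNX1, PRRX1 and RUNX2 stand at the bottom, with 0.0173 or less.

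The order of the members differed between the control groups, which came from different batches. FOSL1 was 0.672 ± 0.0835 CPM in H2O and 6.06 ± 0.123 in WT, SNAI2 was 3.63 ± 0.465 and 10.2 ± 0.945, and SOX9 was 18.7 ± 0.0226 and 44.5 ± 4.71. CD44, TWIST1 and VIM were lower in WT than in H2O, with CD44 at 33.4 ± 1.72 CPM against 58.1 ± 2.06. No mitochondrial gene had a count in batch 1, and all 13 had counts in batch 2, so the CPM totals also differ in content. Culture, water treatment, sequencing batch, counting version and these totals cannot be told apart in this pair of groups. The pair was therefore not tested, and each comparison below stays within its batch.

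In the GRCh38 coordinates of the deposited tables, the members on which the results turn lie at chr10:17228241-17237593 (VIM, + strand), chr11:35138870-35232402 (CD44, +), chr2:28392448-28417317 (FOSL2, +), chr11:65892049-65900573 (FOSL1, -), chr7:19020991-19117636 (TWIST1, -), chr17:72121020-72126416 (SOX9, +) and chr1:170662728-170739421 (PRRX1, +). Counts were summed over all exons of a gene, so transcript variants, such as those of CD44, were not separated.

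Promoter windows of 300 bases, from 250 before to 50 after the annotated start, were read from RefSeq (GRCh38.p14) and were found for 6 members, PRRX1, FOSL2, RUNX1, RUNX2, VIM and CD44. FOSL2 and VIM are shown because they had the largest rises among the abundant members under CoCl2, and CD44 because it fell with FOSL2 in 2 labelled knockouts. Capitals mark the AP-1 letters TGANTCA, the E-box letters CANNTG used by TWIST1 and SNAI2, the RUNX letters TGTGGT and the HIF core letters ACGTG, each on either strand. All 3 windows are on the + strand and are written 5′ to 3′.
FOSL2, chr2:28392608-28392907: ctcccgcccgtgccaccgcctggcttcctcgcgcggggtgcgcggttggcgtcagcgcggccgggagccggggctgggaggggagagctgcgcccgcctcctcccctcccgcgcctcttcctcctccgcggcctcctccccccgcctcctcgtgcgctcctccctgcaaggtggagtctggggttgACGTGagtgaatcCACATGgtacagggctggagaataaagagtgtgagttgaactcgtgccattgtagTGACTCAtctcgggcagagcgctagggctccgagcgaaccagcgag
VIM, chr10:17227991-17228290: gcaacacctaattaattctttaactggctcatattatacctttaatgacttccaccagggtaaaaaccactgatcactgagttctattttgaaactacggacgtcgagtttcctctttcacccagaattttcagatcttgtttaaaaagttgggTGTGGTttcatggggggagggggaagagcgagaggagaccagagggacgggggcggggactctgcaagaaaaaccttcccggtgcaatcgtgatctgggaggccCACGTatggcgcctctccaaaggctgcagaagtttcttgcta
CD44, chr11:35138921-35139220: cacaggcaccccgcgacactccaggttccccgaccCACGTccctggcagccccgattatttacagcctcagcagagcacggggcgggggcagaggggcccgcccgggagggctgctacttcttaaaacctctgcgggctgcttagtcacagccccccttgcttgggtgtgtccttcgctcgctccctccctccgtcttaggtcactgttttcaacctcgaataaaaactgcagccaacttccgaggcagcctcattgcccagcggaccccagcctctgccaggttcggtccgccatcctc
The FOSL2 window held 1 AP-1 match, letters that 7.71% of 35116 RefSeq promoter windows of the same length hold. It also held 1 E-box match (68.7% of windows) and 1 HIF core match (21.4%). The VIM window held 1 RUNX match (13.1% of windows) and 1 HIF core match, and the CD44 window 1 HIF core match. CpG dinucleotides, the substrate of DNA methylation, numbered 29 in the FOSL2 window, 18 in CD44 and 10 in VIM, against a median of 14 over all windows. These letter matches describe the windows and are not measured binding sites.

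In batch 1, CoCl2 at 50 µM raised FOSL2, VIM and SNAI2 and lowered TWIST1, by factors of 1.60, 1.34, 1.53 and 0.742 against H2O. At 10 µM, FOSL2 was already 1.21-fold higher and TWIST1 0.910-fold, each a smaller step in the direction seen at 50 µM. CD44 and SOX9 stood between 0.911 and 0.964 of their H2O level at either dose, and the near-silent genes PRRX1, RUNX1 and RUNX2 gave no call. Called means a Benjamini-Hochberg adjusted p under 0.05 over 13636 genes tested with edgeR's quasi-likelihood test, and SE is the standard error of a log2 fold change. Both doses were compared with the same H2O libraries, so the values of each are given side by side and are not independent.

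VIM, the mesenchymal filament gene, was 1134 and 1139 CPM in the H2O libraries, 1165 and 1161 at 10 µM and 1512 and 1530 at 50 µM. Both 50 µM libraries lay above the other 4, and those of H2O and 10 µM lay close together. The log2 fold change at 50 µM was 0.42 (SE 0.014, adjusted p = 6.74e-67), and that at 10 µM was 0.033 (SE 0.014, adjusted p = 0.0743). Between the doses it was 0.39 (SE 0.014, adjusted p = 1.28e-61). The antisense genes VIM-AS1 and AL133415.1 overlap 12.4% and 12% of the VIM exon length, and counting without strand cannot separate their reads from those of VIM.

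CD44, the hyaluronan receptor, was 56.6 and 59.6 CPM in H2O, 57.2 and 53.0 at 10 µM and 53.5 and 55.8 at 50 µM. The 50 µM libraries lay below both H2O libraries and overlapped those of 10 µM. At 50 µM the log2 fold change was -0.087 (SE 0.036, adjusted p = 0.0321). That call was lost with DESeq2 (adjusted p = 0.199) and without H2O replicate 2 (0.326) or CoCl2 50 µM replicate 1 (0.247). At 10 µM it was -0.078 (SE 0.036, adjusted p = 0.102).

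SNAI2, which encodes the zinc-finger repressor Slug, was 3.96 and 3.30 CPM in H2O, 3.25 and 2.78 at 10 µM and 5.73 and 5.40 at 50 µM. The 50 µM libraries were the highest 2 of the 6 and did not overlap the others. Its log2 fold change at 50 µM was 0.61 (SE 0.12, adjusted p = 3.55e-06), against -0.27 (SE 0.14, adjusted p = 0.147) at 10 µM. The doses differed by 0.89 (SE 0.13, adjusted p = 8.54e-10).

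TWIST1, a helix-loop-helix factor, was 94.5 and 92.8 CPM in H2O, 84.3 and 86.1 at 10 µM and 68.7 and 70.1 at 50 µM. The 3 groups did not overlap, and the level was lower at each higher dose. TWIST1 fell by 0.14 on the log2 scale at 10 µM (SE 0.029, adjusted p = 1e-04) and by 0.43 at 50 µM (SE 0.031, adjusted p = 1.66e-28). The difference between the doses was -0.30 (SE 0.032, adjusted p = 1.05e-15). The call at 10 µM was lost in a fit of all 14 libraries (adjusted p = 0.0664), while the log2 fold change stayed at -0.14. An antisense gene, AC003986.2, overlaps 7.06% of the TWIST1 exon length.

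SOX9, a neural crest and cartilage factor, was 18.7 in both H2O libraries, 18.9 and 17.3 at 10 µM and 16.6 and 17.5 CPM at 50 µM. The 50 µM values lay below H2O, and the 10 µM values fell on either side of it. The log2 fold change was -0.13 (SE 0.061, adjusted p = 0.0465) at 50 µM and -0.053 (SE 0.059, adjusted p = 0.580) at 10 µM. The 50 µM call was lost with DESeq2 (adjusted p = 0.231), with a replicate block (0.0507) and without H2O replicate 1 (0.0978), H2O replicate 2 (0.106) or CoCl2 50 µM replicate 1 (0.247).

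FOSL2, an AP-1 subunit that pairs with JUN proteins, had the largest called rise among the members. Its level was 114 CPM in both H2O libraries, 135 and 142 at 10 µM and 183 and 182 at 50 µM. No library of a group overlapped another group, and the level was higher at each higher dose. The log2 fold change was 0.28 (SE 0.026, adjusted p = 8.82e-19) at 10 µM and 0.68 (SE 0.025, adjusted p = 7.84e-61) at 50 µM. The doses differed by 0.40 (SE 0.024, adjusted p = 1.94e-34).

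FOSL1, the related AP-1 subunit, was scarce in batch 1, with 24 to 40 counts per library. It stood at 0.613 and 0.731 CPM in H2O, 0.740 and 0.746 at 10 µM and 0.896 and 1.12 at 50 µM. The 50 µM libraries were the highest, but the log2 fold change of 0.59 (SE 0.28) had an adjusted p of 0.0575 and was not called. RUNX1 had 3 to 16 counts per library, PRRX1 0 to 2 and RUNX2 0 to 2. RUNX1 passed the filter on low counts only through 1 library at each dose, and its values of 1.20 (SE 0.54, adjusted p = 0.0983) at 10 µM and 0.85 (SE 0.59, adjusted p = 0.206) at 50 µM were not called. PRRX1 and RUNX2 did not pass the filter, and a difference in them was not detectable at this depth, where 3 counts, the limit that a count of 0 allows, correspond to 0.0756 to 0.0960 CPM.

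**Figure D2:**
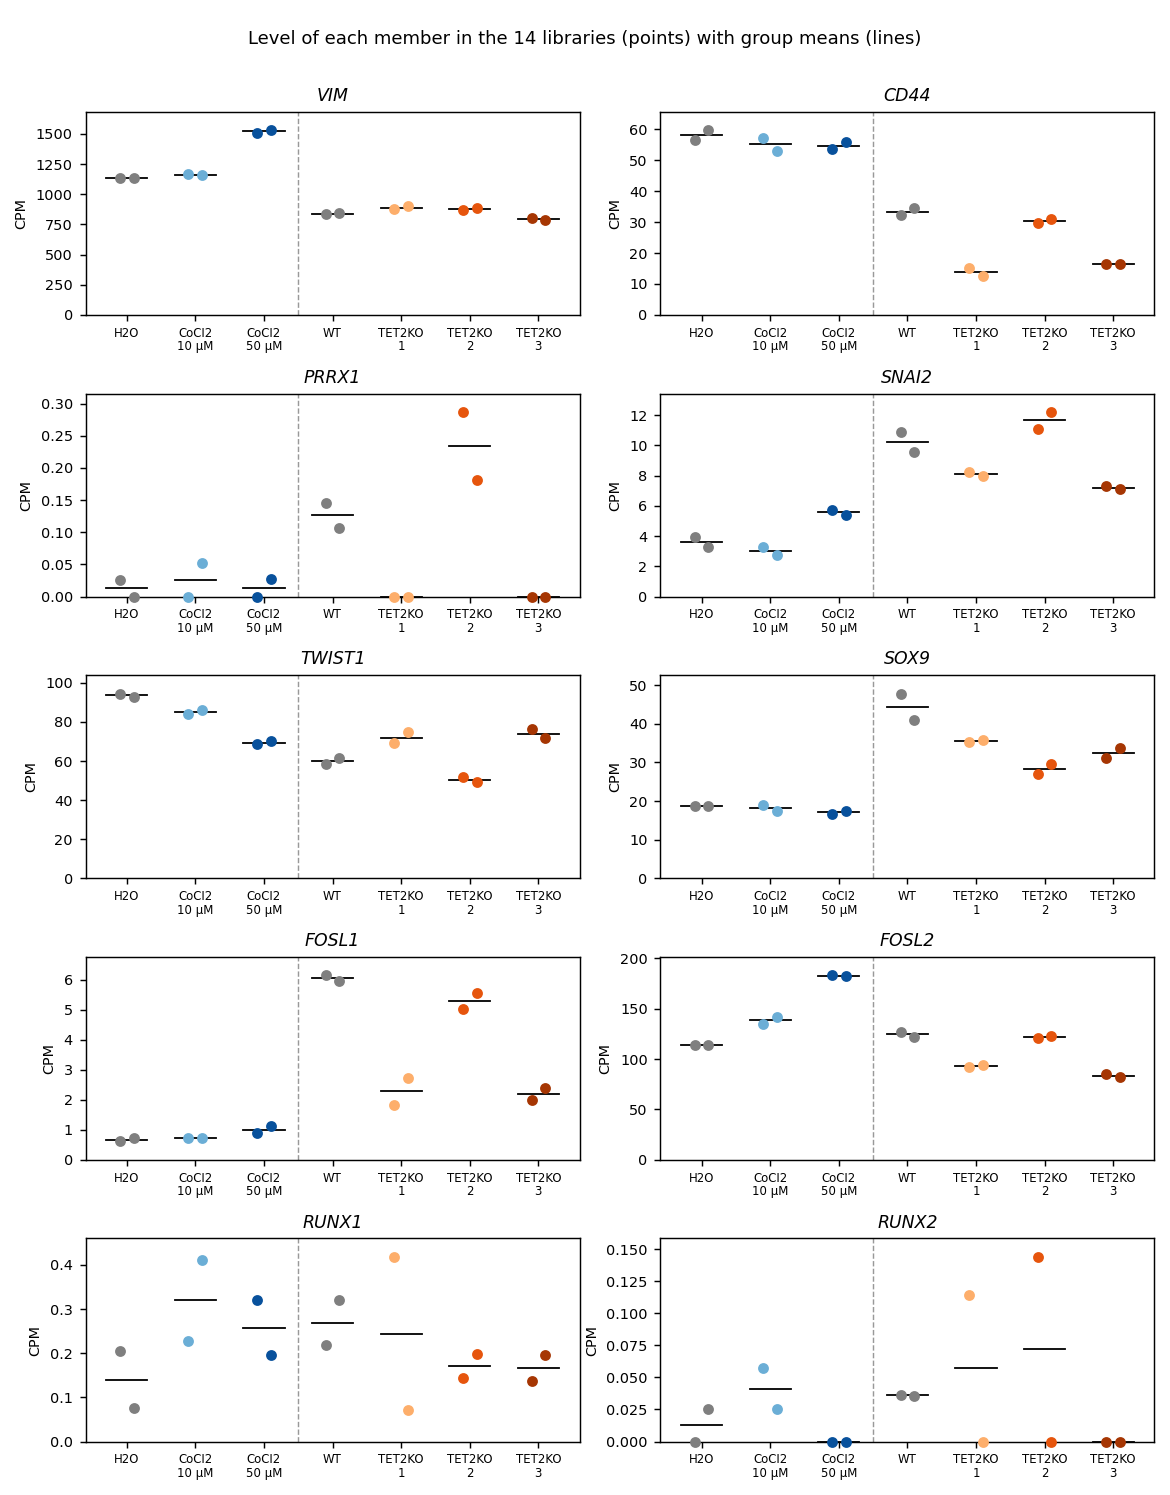
Level of each member in CPM (vertical axes, starting at 0) in the 14 libraries, with 1 point per library and a line at each group mean. The dashed line separates batch 1 (left) from batch 2 (right). VIM and FOSL2 are highest at 50 µM CoCl2, and CD44, FOSL1, FOSL2 and SNAI2 are lower in TET2KO 1 and TET2KO 3 than in WT and TET2KO 2.

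Of the 8 members tested in batch 1, 1 was called higher and 1 lower at 10 µM, where 11.6% of all genes tested were called higher and 11.1% lower. At 50 µM, 3 were called higher (30.4% of all genes) and 3 lower (31.1%). Between the doses, 3 were called higher at 50 µM (26.2% of all genes) and 1 lower (26.5%). Against H2O, the shares of members called lay near those of the whole table at both doses. The median log2 fold change of the tested members was 0.51 at 50 µM, against 0.0020 over all genes. At 10 µM it was -0.0097, against -0.00066. Both medians include RUNX1 (0.85 at 50 µM and 1.20 at 10 µM, not called), which passed the filter only through 1 library at each dose. They are descriptions only.

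Of 11 tested AP-1 partners, 4 were called higher and 5 lower at 50 µM, where 30.4% and 31.1% of all genes were. FOS, the best-known subunit of the FOS family, fell by 0.95 (SE 0.028, adjusted p = 6.53e-73) where FOSL2 rose. ATF3, a stress-induced member, rose by 0.36 (SE 0.079, adjusted p = 2.89e-05). Of 7 tested RUNX and SOX9 partners, 0 were called higher and 2 lower (30.4% and 31.1% of all genes). TLE1 had the larger fall (-0.62, SE 0.045, adjusted p = 7.13e-28). CBFB, the subunit with which RUNX proteins bind DNA, fell by 0.17 (SE 0.026, adjusted p = 3.19e-09).

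The list counts at 50 µM given next stand beside 30.4% of all genes called higher and 31.1% lower. Among the intermediate filament genes and linkers, all 10 tested were called, 6 higher and 4 lower. PRPH, which encodes the neuronal filament protein peripherin, rose by 0.58 (SE 0.018, adjusted p = 2.50e-72). NES (nestin) fell by 0.14 (SE 0.017, adjusted p = 2.79e-13). Of 18 other mesenchymal markers tested, 7 were called higher and 8 lower. SPARC, a matrix protein, rose by 0.40 (SE 0.041), while NT5E, the ectonucleotidase CD73, fell by 1.91 (SE 0.086) and S100A6 by 0.94 (SE 0.024). The CD44 partner MMP14, a membrane protease, fell by 0.95 (SE 0.057). Of 13 tested other factors of the mesenchymal state, 4 were called higher and 2 lower, with ID1 up by 0.87 (SE 0.065) and AEBP1 down by 1.19 on the log2 scale (-1.19, SE 0.070).

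Among the tested EMT and neural crest factors other than the members, 1 of 7 was called higher (ZEB2, 0.22, SE 0.029) and 3 lower. The shares over all genes at 50 µM were 30.4% and 31.1%, also for the adrenergic list below. Among those at a mean of at least 1 CPM, ETS1 fell by the largest step (-0.47, SE 0.039). PRRX2, the paralogue of PRRX1, lay under 1 CPM, at 0.419 ± 0.0936 CPM in H2O and 0.122 ± 0.0538 at 50 µM. It was called lower at 10 µM (-1.61, SE 0.51, adjusted p = 0.0120). The adrenergic list was called higher for 6 genes and lower for 6 of 14 tested at 50 µM, and its summed level was 7388 to 7423 CPM in H2O and 6725 to 6805 at 50 µM. Markers of other cell types were also read beside these results. The 5 leukocyte markers summed to 5.72 to 5.90 CPM in H2O and 19.2 to 19.7 at 50 µM, nearly all of it CD68, a lysosomal protein gene (5.20 ± 0.156 and 18.9 ± 0.163 CPM). The 8 endothelial markers summed to 2.50 to 3.53 CPM over the 6 libraries. The 8 fibroblast markers summed to 174 CPM in both H2O libraries and 197 to 201 at 50 µM, where DCN rose by 0.62 (SE 0.026) while PDGFRB fell by 1.40 (SE 0.053) and COL3A1 by 0.75 (SE 0.16). The Schwann cell markers analysed summed to 4.94 to 5.31 CPM in H2O and 3.25 to 3.49 at 50 µM, with ERBB3 down by 1.31 on the log2 scale (-1.31, SE 0.20). The epithelial genes summed to 12.5 to 13.1 and 8.03 to 9.01 CPM, with KRT19 down by 1.21 (-1.21, SE 0.12). The part of these shifts in the member changes was not tested, and fewer cells of a type and less RNA per cell cannot be told apart in bulk RNA.

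In batch 2, the labelled knockouts fell into different patterns over the members. In TET2KO 1 and TET2KO 3, FOSL1 stood at 0.381 and 0.361 of its WT level, CD44 at 0.412 and 0.490, and FOSL2 at 0.750 and 0.670, while TWIST1 was 1.20- and 1.23-fold higher. In TET2KO 2, CD44, FOSL1, FOSL2 and SNAI2 gave no call against WT, TWIST1 was lower at 0.841 of WT and SOX9 stood at 0.636. SOX9 was the only member called in the same direction in all 3 labelled knockouts. The 3 were compared with the same WT libraries, so their values are set side by side and are not independent.

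**Figure D3:**
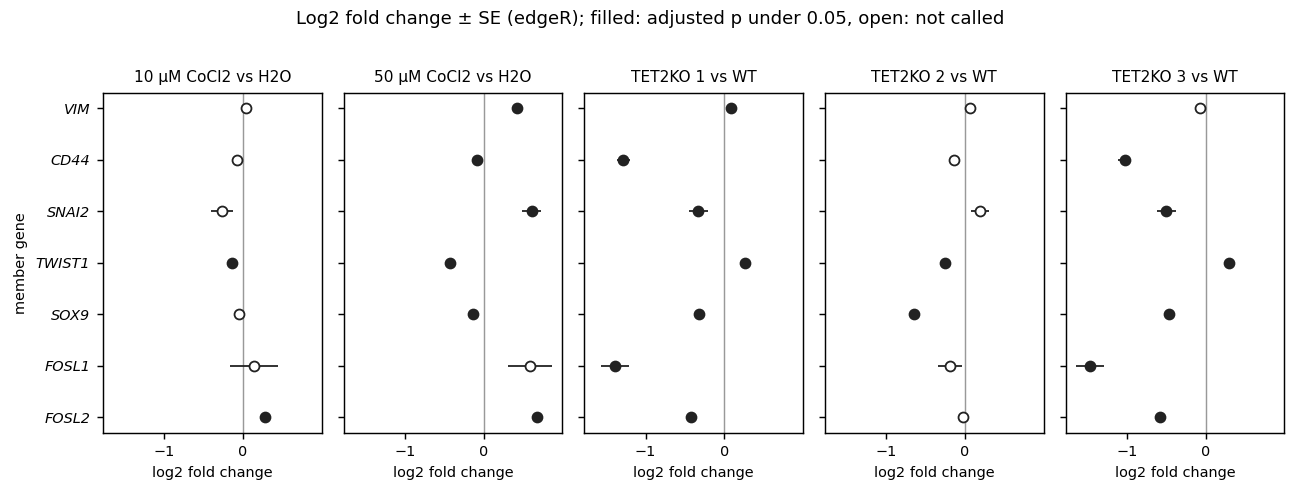
Log2 fold change with its SE (horizontal axes) for the 7 members with enough counts, against H2O in the first 2 panels and against WT in the other 3. Filled points were called at an adjusted p under 0.05. CD44 and FOSL1 lie beyond -1 in TET2KO 1 and TET2KO 3 and near 0 in TET2KO 2.

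CD44 was 32.2 and 34.6 CPM in WT, 15.1 and 12.5 in TET2KO 1, 29.7 and 31.1 in TET2KO 2 and 16.3 and 16.5 in TET2KO 3. The libraries of TET2KO 1 and 3 lay far below all others, and those of TET2KO 2 lay just under both WT libraries. CD44 fell by 1.28 on the log2 scale in TET2KO 1 (SE 0.081, adjusted p = 1.97e-35) and by 1.03 in TET2KO 3 (SE 0.078, adjusted p = 2.82e-27). In TET2KO 2 its value was -0.14 (SE 0.069, adjusted p = 0.139).

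VIM was nearly level across batch 2, at 838 and 841 CPM in WT, 878 and 903 in TET2KO 1, 872 and 886 in TET2KO 2 and 806 and 791 in TET2KO 3. TET2KO 1 and 2 lay above both WT libraries and TET2KO 3 below them, and none of these steps approached that of CD44. The log2 fold changes were 0.086 (SE 0.029, adjusted p = 0.0269) in TET2KO 1, 0.067 (SE 0.029, adjusted p = 0.0813) in TET2KO 2 and -0.072 (SE 0.029, adjusted p = 0.0714) in TET2KO 3. The call in TET2KO 1 was lost without WT replicate 1 (adjusted p = 0.0997), WT replicate 2 (0.0808) or TET2KO 1 replicate 2 (0.280). DESeq2 called VIM in TET2KO 2 (0.0490) and TET2KO 3 (0.0473).

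SNAI2 was 10.9 and 9.54 CPM in WT, 8.25 and 7.96 in TET2KO 1, 11.1 and 12.2 in TET2KO 2 and 7.28 and 7.14 in TET2KO 3. All 4 libraries of TET2KO 1 and 3 were below WT, and both of TET2KO 2 were above it. The log2 fold changes were -0.33 (SE 0.12, adjusted p = 0.0339), 0.19 (SE 0.11, adjusted p = 0.209) and -0.50 (SE 0.12, adjusted p = 6.52e-04) in the order of the knockout numbers. Both calls were lost without WT replicate 1, to 0.332 in TET2KO 1 and 0.0569 in TET2KO 3. In TET2KO 1 the call was also lost with DESeq2 (0.0626) and without replicate 1 (0.0862) or replicate 2 (0.200) of that knockout.

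TWIST1 was 58.4 and 61.5 CPM in WT, 69.2 and 74.7 in TET2KO 1, 51.6 and 49.3 in TET2KO 2 and 76.2 and 71.7 in TET2KO 3. The libraries of TET2KO 1 and 3 overlapped each other and lay above WT, and those of TET2KO 2 lay below it. TWIST1 rose by 0.26 (SE 0.052, adjusted p = 2.24e-05) in TET2KO 1 and by 0.30 (SE 0.052, adjusted p = 5.53e-07) in TET2KO 3, and it fell by 0.25 (SE 0.055, adjusted p = 1.10e-04) in TET2KO 2. Its sign was opposite to that of SNAI2 in each labelled knockout, although SNAI2 was not called in TET2KO 2.

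SOX9 was 47.8 and 41.1 CPM in WT, 35.3 and 35.9 in TET2KO 1, 26.9 and 29.6 in TET2KO 2 and 31.1 and 33.8 in TET2KO 3. Every labelled knockout library was below both WT libraries, and those of TET2KO 2 were the lowest. SOX9 fell by 0.32 (SE 0.064, adjusted p = 2.61e-05), 0.65 (SE 0.066, adjusted p = 7.02e-17) and 0.46 (SE 0.065, adjusted p = 1.60e-09) in the order of the knockout numbers. Without WT replicate 1, the higher WT library, the TET2KO 1 value was -0.21 and was not called (adjusted p = 0.0643).

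FOSL1 was 6.15 and 5.97 CPM in WT, 1.84 and 2.74 in TET2KO 1, 5.04 and 5.57 in TET2KO 2 and 2.00 and 2.40 in TET2KO 3. All 4 libraries of TET2KO 1 and 3 lay below those of WT and TET2KO 2, with a wide gap. FOSL1 fell by 1.39 (SE 0.18, adjusted p = 2.31e-11) in TET2KO 1 and by 1.47 (SE 0.18, adjusted p = 2.96e-12) in TET2KO 3, the largest called changes among the members. In TET2KO 2 its value was -0.19 (SE 0.15, adjusted p = 0.365).

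FOSL2 was 127 and 122 CPM in WT, 92.5 and 94.4 in TET2KO 1, 121 and 123 in TET2KO 2 and 84.9 and 81.9 in TET2KO 3. TET2KO 2 overlapped WT, and the other labelled knockouts lay below both. FOSL2 fell by 0.42 (SE 0.044, adjusted p = 6.93e-16) in TET2KO 1 and by 0.58 (SE 0.045, adjusted p = 1.84e-26) in TET2KO 3, against -0.030 (SE 0.043, adjusted p = 0.663) in TET2KO 2. Both FOS-related members thus shared 1 pattern over the 3 labelled knockouts, with a smaller change in the more abundant FOSL2.

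PRRX1, a homeobox factor, had 8 and 6 counts in the WT libraries, 0 and 0 in TET2KO 1, 16 and 10 in TET2KO 2 and 0 and 0 in TET2KO 3. In batch 2 most counts stood for single reads, so the WT counts stand for fewer fragments. PRRX1 passed the filter on low counts only through TET2KO 2, where it was high. A floor of 3 fragments, taken as 6 counts, was set over each group at 0. The observed WT level was 2.30-fold the floor of TET2KO 1 and 2.31-fold that of TET2KO 3. Sampling error in the few WT counts is not allowed for, so these ratios are not firm lower limits. PRRX1 was called in neither TET2KO 1 nor TET2KO 3 by the edgeR test used throughout (adjusted p = 0.0585 and 0.0548). DESeq2 (0.0391 and 0.0370) and edgeR with its legacy quasi-dispersion (0.0377 and 0.0350) called it in both. In a single library of batch 2 that floor corresponds to 0.103 to 0.117 CPM, so the 4 zeros lie next to what the depth can show.

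RUNX1 had 4 to 22 counts per library and was not called in any labelled knockout, with log2 fold changes of -0.18 (SE 0.66), -0.65 (SE 0.71) and -0.71 (SE 0.72). Its 2 TET2KO 1 libraries, with 22 and 4 counts, spanned the whole range. RUNX2 had 0 to 8 counts and was not tested, so a change in either RUNX factor was not detectable at this depth.

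Of the 9 members tested in batch 2, 2 were called higher and 5 lower in TET2KO 1, where 7.79% of all 14061 genes tested were called higher and 9.72% lower. In TET2KO 3, 1 was called higher (8.90% of all genes) and 5 lower (9.96%). In TET2KO 2, edgeR called 2, both lower, where 12.0% of all genes were called higher and 14.3% lower. DESeq2 called 3 members in TET2KO 2, and 4 had an unadjusted edgeR p under 0.05, namely TWIST1, SOX9, VIM (0.0245) and CD44 (0.0498). Without WT replicate 1, 4 members were called in TET2KO 1 in place of 7. The median log2 fold change of the tested members was -0.33, -0.14 and -0.58 in the order of the knockout numbers. Over all genes it was -0.0013, 0.00070 and -0.00048. The member medians include PRRX1, which passed the filter only through TET2KO 2, and are descriptions only.

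A direct test of the 3 labelled knockouts against each other was also made. Leaving out PRRX1, which was testable only through TET2KO 2, a difference was called for 7 of the 8 other tested members, RUNX1 being the exception, where 37.6% of all genes were called. TET2KO 2 was then compared with the mean of TET2KO 1 and 3, a contrast chosen after the values had been seen. In it, again leaving out PRRX1, 4 members were called higher (17.8% of all genes) and 2 lower (17.4%). Relative to that mean, FOSL1 was 2.36-fold (log2 1.24, SE 0.16, adjusted p = 4.48e-12), CD44 2.03-fold (1.02, SE 0.069, adjusted p = 6.51e-33), SNAI2 1.52-fold and FOSL2 1.38-fold higher in TET2KO 2. TWIST1 was lower, at 0.691-fold (log2 -0.53, SE 0.047, adjusted p = 6.21e-22), and so was SOX9 at 0.833-fold (log2 -0.26, SE 0.061, adjusted p = 1.69e-04). The SOX9 call was lost without TET2KO 2 replicate 1 (log2 -0.20, adjusted p = 0.0592).

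**Figure D4:**
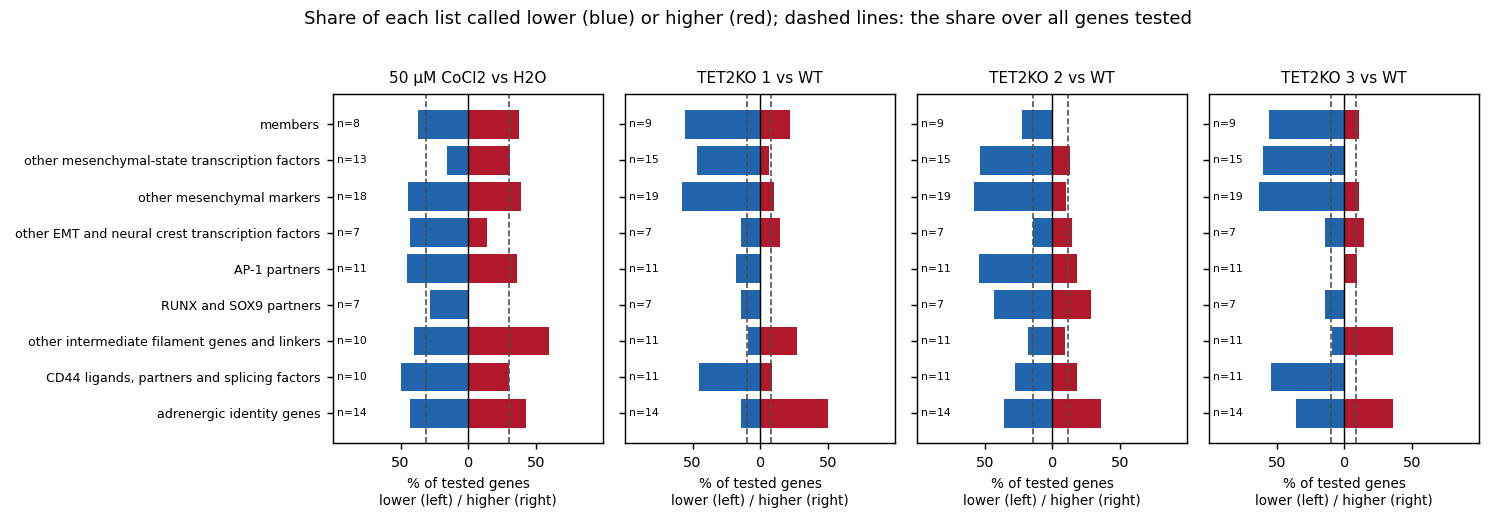
Share of the tested genes of each list called lower (blue, left) or higher (red, right), in percent, with the share over all genes tested as dashed lines and the number tested as n. In TET2KO 1 and TET2KO 3, 5 of 9 members were called lower, and the lists of other mesenchymal factors and markers lean to the left in all 3 labelled knockouts.

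Some related mesenchymal genes were called lower in each labelled knockout. Of 15 other tested factors of the mesenchymal state, 7, 8 and 9 were called lower in the order of the knockout numbers, where 9.72%, 14.3% and 9.96% of all genes were. In TET2KO 1 the factor ID1 was the 1 called higher (0.19, SE 0.069), and in TET2KO 2 there were 2, among them TBX18 (0.49, SE 0.090). WWTR1, the Hippo pathway co-activator TAZ, fell by 1.80 (SE 0.18), 0.70 (SE 0.15) and 1.5 (SE 0.18). Of 19 other mesenchymal markers tested, 11, 11 and 12 were called lower and 2 higher in each. ANXA1, an annexin, fell by 2.59 (SE 0.22), 1.54 (SE 0.18) and 3.28 (SE 0.25), and FN1, the matrix protein fibronectin, was 316 ± 13.7 CPM in WT, 57.7 ± 0.137 in TET2KO 1, 134 ± 3.66 in TET2KO 2 and 54.5 ± 0.318 in TET2KO 3. These lists and the members were chosen with earlier results known, and the counts are descriptions.

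Of 11 tested AP-1 partners, 6 were called lower and 2 higher in TET2KO 2 (14.3% and 12.0% of all genes). In TET2KO 1, 2 were called lower, where 9.72% of all genes were. In TET2KO 3 JUNB alone was called, higher by 0.16 (SE 0.052, adjusted p = 0.0189), where 8.90% of all genes were called higher. FOS fell by 2.77 (SE 0.12, adjusted p = 4.01e-59) in TET2KO 2 and by 0.27 (SE 0.081, adjusted p = 0.00914) in TET2KO 1. FOSB, a close relative, fell by 2.07 (SE 0.32) in TET2KO 2, the labelled knockout in which FOSL1 and FOSL2 gave no call. In TET2KO 2 against the mean of the others, FOS was lower by 2.58 (-2.58, SE 0.11) and FOSL1 higher by 1.24.

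ETS1, a factor of neural crest and vessels on the list of EMT factors, fell by 1.05 (SE 0.074), 0.39 (SE 0.067) and 0.74 (SE 0.070) in the order of the knockout numbers. ZEB1, on the same list, rose by 0.33 (SE 0.044, adjusted p = 4.70e-11) in TET2KO 2. PRRX2, the paralogue of PRRX1, rose by 1.31 (SE 0.31, adjusted p = 7.13e-04) in TET2KO 1 and by 1.36 (SE 0.31, adjusted p = 3.20e-04) in TET2KO 3, the labelled knockouts in which no PRRX1 read was counted. Of 11 tested CD44 ligands, partners and splicing factors, 1, 2 and 0 were called higher, where 7.79%, 12.0% and 8.90% of all genes were. Called lower were 5, 3 and 6, where 9.72%, 14.3% and 9.96% of all genes were. MMP14 fell by 0.75 (SE 0.093) in TET2KO 1 and 0.97 (SE 0.096) in TET2KO 3 and rose by 0.22 (SE 0.080) in TET2KO 2. VCAN (-0.60, SE 0.040) and ANK3 (-0.45, SE 0.047) were lower in TET2KO 2, and ANK3 also in TET2KO 1 (-0.68, SE 0.048). The hyaluronan synthase HAS2, which makes the CD44 ligand, rose by 1.37 (SE 0.23) in TET2KO 2 and fell by 0.96 (SE 0.34, adjusted p = 0.0315) in TET2KO 3.

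Of 7 tested RUNX and SOX9 partners, 2 were called higher and 3 lower in TET2KO 2 (12.0% and 14.3% of all genes). There CBFB rose by 0.12 (SE 0.041, adjusted p = 0.0219), while TLE1 (-0.36, SE 0.060) and CBFA2T2 (-0.25, SE 0.057) were lower. RUNX1T1 fell by 0.28 (SE 0.080) in TET2KO 1 and by 0.32 (SE 0.081) in TET2KO 3. It was the 1 partner called in each, where 9.72% and 9.96% of all genes were called lower. Of 11 tested intermediate filament genes, 4 were called higher (8.90% of all genes) and 1 lower (9.96%) in TET2KO 3, where VIM was not called. NEFL, a neurofilament subunit, rose by 0.29 (SE 0.034) in TET2KO 1 and 0.38 (SE 0.034) in TET2KO 3, and NES fell by 0.61 (SE 0.031) in TET2KO 2. The adrenergic list was called higher for 7, 5 and 5 and lower for 2, 5 and 5 of 14 tested genes. Of all genes, 7.79%, 12.0% and 8.90% were called higher and 9.72%, 14.3% and 9.96% lower. The summed level of the adrenergic list was 5156 to 5284 CPM in WT and 4875 to 5135 in the labelled knockouts.

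Markers of other cell types moved with the labelled knockouts too. The 8 endothelial markers, none of them at 0 in a group, summed to 13.7 to 13.9 CPM in WT. The sums were 2.22 to 2.45 in TET2KO 1, 5.11 to 5.72 in TET2KO 2 and 3.12 to 4.07 in TET2KO 3. In the order of the knockout numbers, 6, 4 and 5 of 8 were called lower, where 9.72%, 14.3% and 9.96% of all genes were. CDH5, the cadherin of vessel walls, was 4.56 ± 0.293 CPM in WT and 0.705 ± 0.00187, 1.60 ± 0.494 and 0.732 ± 0.318 in the labelled knockouts. The 8 fibroblast markers summed to 316 to 320 CPM in WT and 143 to 161 in the labelled knockouts, with COL3A1 at 155 ± 3.91 CPM in WT and 14.8 ± 0.364, 27.5 ± 0.546 and 12.9 ± 0.671, whereas DCN rose in all 3. COL1A2, a defining fibroblast collagen gene, had no count in WT and TET2KO 2 and at most 4 per group in the others.

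The 4 Schwann cell markers analysed summed to 11.1 to 11.9 CPM in WT and 5.02 to 8.18 in the labelled knockouts, and ERBB3, 1 of them, was called lower in all 3. The leukocyte list was 7.71 to 16.8 CPM over batch 2, with the defining gene PTPRC at 0 in WT, TET2KO 2 and TET2KO 3, and the epithelial list was 10.9 to 16.1 CPM. Their part in the changes of CD44, FOSL1, FOSL2, SNAI2 and SOX9 was not tested.

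**Figure D5:**
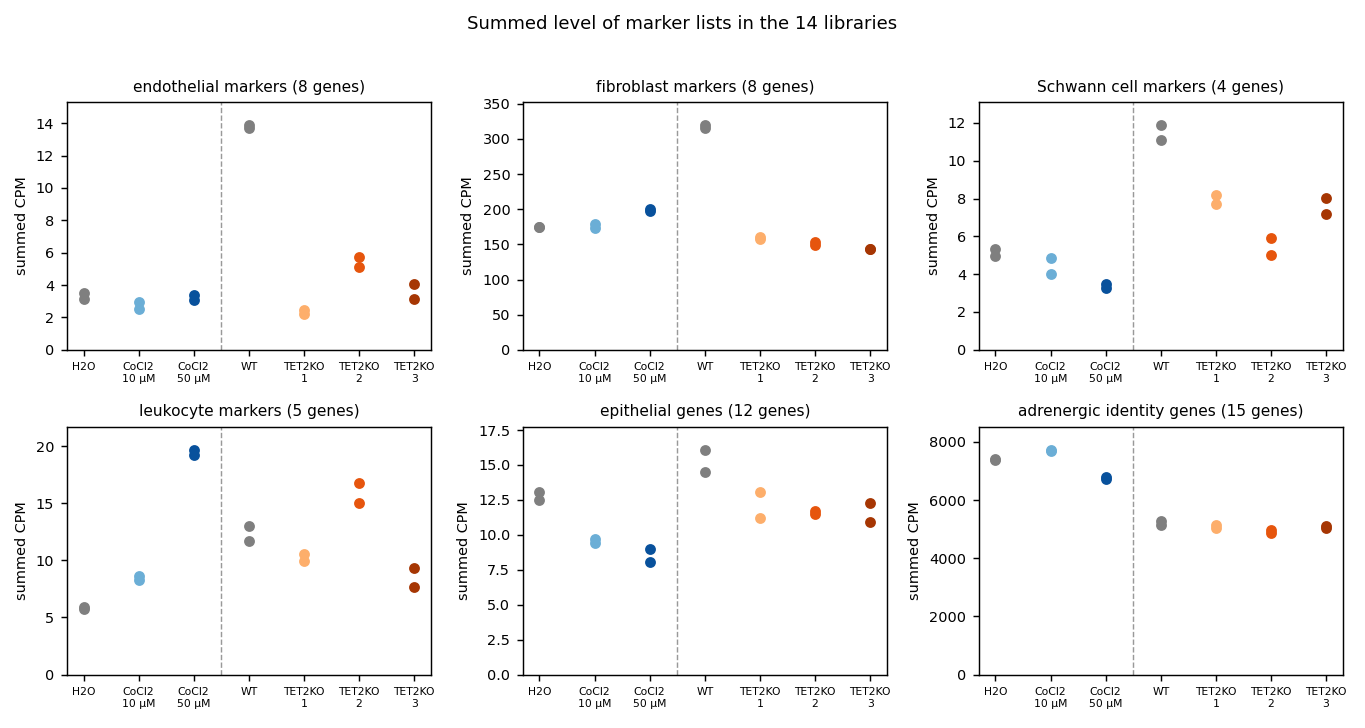
Summed level in CPM (vertical axes, starting at 0) of 6 marker lists in each library, 1 point per library, with batch 1 left and batch 2 right of the dashed line. The endothelial and fibroblast sums are highest in WT (13.7 to 13.9 and 316 to 320 CPM) and lower in all 3 labelled knockouts.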

How the data were processed

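Per the file headers, the authors deposited raw counts per gene, made with featureCounts 1.5.3 (batch 1) and 2.0.5 (batch 2) over exons of GENCODE 33 protein-coding genes, with the paired-end option and no strand option. The submitters' processing notes name Trimmomatic 0.36, STAR 2.6.1d, Subread 1.5.3 and GRCh38. Even counts made up 39.0% to 42.3% of counts from 1 to 10 in batch 1 and 77.3% to 80.5% in batch 2, where both reads of a pair were mostly counted. Other assays named in the series were not analysed here.

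The tests used edgeR 4.0.16 under R 4.3.3 (filterByExpr, TMM, quasi-likelihood test, legacy = FALSE, robust, dispersion of at least just above 1e-04), 1 fit per batch. A call required a Benjamini-Hochberg p under 0.05 over all genes tested, and the procedure was checked on simulated data. CPM used TMM-scaled totals, and DESeq2 1.42.0 was an alternative. Overlapping genes came from GENCODE 29. The members and lists were chosen with earlier results of these data known. From each other list, up to 2 genes called higher and 2 called lower per comparison could be named. These had the largest fold change at a mean of at least 1 CPM, and not all of them are given in the text. COL1A2, PTPRC, the batch 1 values of PRRX2 and the FN1 levels of TET2KO 1 and 2 were added after their values were seen. Replicate numbers did not pair libraries (correlation of deviations -0.036 to 0.074).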

Additional observations from a re-analysis of the deposited data

Results flagged for a closer look

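Among the 3 labelled knockouts, 7 members other than PRRX1 differed in their log2 fold change against WT, by the direct test of that difference with edgeR. The gap between the highest and the lowest labelled knockout was 1.28 for FOSL1 (adjusted p = 3.30e-11) and 1.14 for CD44 (adjusted p = 2.18e-32). It was 0.69 for SNAI2 (adjusted p = 2.30e-07), 0.55 for FOSL2 (adjusted p = 3.79e-25) and 0.55 for TWIST1 (adjusted p = 5.04e-21). SOX9 differed by 0.33 (adjusted p = 1.32e-04) and VIM by 0.16 (adjusted p = 1.51e-06). For PRRX1 the labelled knockouts with 0 counts were set to a floor of 6 counts (3 fragments) over a group. The gap from that floor to the observed TET2KO 2 level was 2.10, or 4.29-fold, with sampling error in TET2KO 2 not allowed for. PRRX1 passed the filter on low counts only through TET2KO 2, so this value is a description with no test, and it was not tested at all with batch 2 counts divided by 2, at 1 CPM or in the fit of 14 libraries. For CD44, FOSL1, FOSL2, SNAI2 and PRRX1 the highest of the 3 was TET2KO 2, and for TWIST1 and SOX9 the lowest was TET2KO 2. The cause of these differences was not tested.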

How the results depend on the processing

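Over settings other than leaving out a library, 523 of 539 log2 values of members kept their direction and their side of the threshold, 7 calls were lost, 9 were gained and none reversed. With 1 library left out, 447 of 472 did so, 14 calls were lost and 3 gained. Reversals there touched uncalled values only, given here as lowest to highest without 1 library: SOX9 at 10 µM (-0.11 to 0.0095), CD44 (-0.065 to 0.045) and RUNX1 (-0.72 to 0.15) between the doses, and RUNX1 in TET2KO 1 (-1.90 to 0.63) and in TET2KO 2 against the mean of TET2KO 1 and 3 (-0.62 to 0.65). The calls of CD44, FOSL1, FOSL2 and TWIST1 in TET2KO 1 and 3 and of FOSL2, VIM, SNAI2 and TWIST1 at 50 µM held in every setting run.

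At 10 µM, 3098 genes were called, against 1121 with DESeq2 and 796 in a fit of all 14 libraries, where 1 member was called in place of 2, and 1860 to 3292 without 1 library (2063 without H2O replicate 1, 1860 without CoCl2 10 µM replicate 2). Between the doses that fit called 4678 genes against 7198. Leaving out 1 library gave 1375 to 2586 genes and 4 to 7 members in TET2KO 1 (1619 genes without WT replicate 1, 1375 without its replicate 2), 2406 to 3766 genes in TET2KO 2 (2406 without its replicate 1) and 1566 to 2615 in TET2KO 3 (1616 without WT replicate 1, 1566 without its replicate 1). An arm left with 1 library was assumed to vary like the other groups. The cause of these shifts was not tested. With a replicate block, 5 members were called at 50 µM in place of 6 (SOX9 lost), 2228 genes in TET2KO 1 against 2462, and no other member call changed. PRRX1 was below the filter when batch 2 counts were divided by 2. Depth limits PRRX1, RUNX1 and RUNX2, whose counts lie near the limit that a count of 0 allows.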
